A study of Zea mays with 2 samples.

Results

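Chromatin loops that joined 1 level 0 domain to the next one along the chromosome were described in leaves of the maize inbred line B73. They were chosen by position: the midpoint of the left anchor had to lie in 1 level 0 domain and that of the right anchor in the following level 0 domain of the same replicate, with neither anchor touching the 2 kb on either side of any level 0 boundary. The rule selected 1526 of the 16863 loops on chromosomes 1 to 10 in replicate 1 and 2223 of 25628 in replicate 2, which made 3749 of the 43118 loops of both lists, unplaced sequence included. They are called crossing loops below, and the place where 2 consecutive level 0 domains meet is called their boundary. Loop and domain positions chose the members, so distances to the crossed boundary, loop lengths, domain sizes and contacts are given as description, whereas presence in the other replicate and the position of smaller domains within level 0 domains were not used by the rule. The margin can still bear on the smaller domains, since it also removes anchors at any edge that they share with a level 0 domain.

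Hi-C ligates and reads pairs of DNA pieces that were neighbours in the folded genome, and a domain is a stretch of chromosome whose sequences contact each other more often than they contact the stretches beside it. In plants such stretches are often called TAD-like domains, because they resemble the topologically associating domains of animals while the insulator protein CTCF that marks many animal boundaries has no known counterpart. A loop is a pair of distant positions, its anchors, that meet more often than their surroundings do. In the large maize genome loops commonly connect gene islands separated by stretches of repeats, and a loop that spans a domain boundary links sequences of different domains.

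Both samples were B73 leaf tissue at stage v04 from plants grown in a greenhouse, with the leaves of 4 plants combined in each of 2 biological replicates from the same batch, and no second genotype or treatment. Domains were nested, with level 0 as the outermost and level 6 as the deepest. Replicate 1 held 7131 level 0 domains, whose neighbours met at 7121 boundaries, and replicate 2 held 7257 with 7247 boundaries. A gap lay between the neighbours at 2.19% and 2.79% of these boundaries. Loops had a median of 21 contacts in replicate 1 and 32 in replicate 2, and total contacts per library, which the loop and domain lists do not hold, were not used here. Anchors were 5, 10 or 25 kb wide in replicate 1 and 10 kb wide in replicate 2. The 2 lists also came from different releases of the loop caller, so that differences between the replicates cannot be told apart from those of the calling.

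Crossing loops formed about the same share of the loops in each replicate. They were 9.05% of the loops on chromosomes 1 to 10 in replicate 1 (95% Wilson interval 8.63 to 9.49%) and 8.67% in replicate 2 (8.34 to 9.02%), a mean of 8.86% ± 0.265 (SD, n = 2). Loops with both anchors inside 1 level 0 domain were 8858 and 11972, those with an anchor at a level 0 boundary 6044 and 10722, and those that passed over at least 1 whole level 0 domain 403 and 664. All intervals on shares reflect counting error alone and take each loop or boundary as independent of the others.

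The share varied little along the genome. By chromosome it ranged from 8.37% on chromosome 9 to 9.79% on chromosome 4 in replicate 1, and from 7.29% on chromosome 1 to 10.2% on chromosome 10 in replicate 2. When each chromosome was divided into 5 equal parts, crossing loops were 8.31 to 9.99% of the loops of a part in replicate 1 and 7.99 to 9.32% in replicate 2. The lowest share was in the last part of the chromosomes in both replicates and the highest in the second, while the last part held the most loops of all parts.

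How many loops counted as crossing depended on where the boundary was placed. Level 0 boundaries lay on a 10-kb grid. With no margin around the boundary the share was 20.6% in replicate 1 and 26.2% in replicate 2, whereas it was 2.66% and 4.01% with a margin of 20 kb. Loops left out only because an anchor met the boundary zone were 2561 and 4491, all at a distance of 0 kb, and the loops kept that lay closest to any level 0 boundary were at 5 kb in replicate 1 (441 loops) and at 10 kb in replicate 2 (1196 loops). The loops left out had a median of 23 and 31 contacts, against 17 and 27 for the closest loops kept.

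A set of crossing loops was identical in both lists. Only loops with 10-kb anchors, the single width of replicate 2, could be identical, and 602 crossing loops of replicate 1 had such anchors. Loops with the same anchors that crossed a boundary in each replicate numbered 76, and 45 of them crossed the same boundary coordinate. Of these 45 loops, 21 had at least 20 contacts in each replicate. The 45 loops had a median length of 170 kb, and their nearer anchor lay at a median of 10 kb from the boundary. They had a median of 19 contacts in replicate 1 (range 12 to 53) and 35 in replicate 2 (range 17 to 130), and 45 of 45 had more contacts in replicate 2. Divided by the contacts that the donut-shaped surroundings predicted, which is the ratio used below, the observed counts had medians of 5.08 and 4.72, so the counts of contacts differed more between the replicates than the ratios did.

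The strongest of the 45 loops, ranked by the lesser of its 2 ratios among those with at least 20 contacts in each replicate, was on chromosome 8 of AGPv4. It joined 25920001-25930000 to 26140001-26150000 over 220 kb, with 53 contacts (ratio 8.56) in replicate 1 and 130 contacts (ratio 12.02) in replicate 2. It passed over the boundary at 26130000, which lay 200 kb from its left anchor and 10 kb from its right anchor. The left domain was 220 kb long in both replicates, while the right domain measured 1050 kb in replicate 1 but 670 kb in replicate 2. The left anchor thus stood at the far end of the left domain, and the right anchor just beyond the boundary.

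The next loops by this ranking also had a right anchor just beyond the boundary in 3 of 4 cases. On chromosome 8 a loop of 210 kb between 144400001-144410000 and 144610001-144620000 had 24 and 55 contacts (ratios 6.08 and 6.74). On chromosome 9 a loop of 160 kb between 146960001-146970000 and 147120001-147130000 had 20 and 43 contacts (ratios 5.81 and 8.40). On chromosome 1 a loop of 70 kb between 237440001-237450000 and 237510001-237520000 had 23 and 50 contacts (ratios 5.58 and 6.72). The right anchor of each of these 3 loops lay 10 kb from the crossed boundary. The exception was a loop of 70 kb on chromosome 2 between 212610001-212620000 and 212680001-212690000, with 24 and 40 contacts (ratios 6.06 and 6.85), whose anchors lay 20 kb to the left and 40 kb to the right of the boundary at 212640000. Genes at these anchors were not analysed here.

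Crossing loops were longer than loops inside a domain. Their median length was 160 kb in replicate 1 (quartiles 100 and 260 kb, range 35 to 2150 kb) and 180 kb in replicate 2 (quartiles 120 and 275 kb, range 40 to 2160 kb), whereas loops inside 1 domain had medians of 95 and 90 kb. The longest crossing loop was nearly the same contact in both lists. In replicate 1 it joined 77725001-77750000 to 79875001-79900000 on chromosome 3 with 12 contacts (ratio 9.68), and in replicate 2 it joined 77730001-77740000 to 79890001-79900000 with 21 contacts (ratio 113). The boundary it crossed was at 79220000 in replicate 1 but at 79250000 in replicate 2, which is farther apart than the 10 kb allowed for a boundary to count as found again.

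The 2 anchors lay at unequal distances from the crossed boundary, more so in replicate 1. The nearer anchor lay at a median of 10 kb from the boundary in replicate 1 (quartiles 10 and 50 kb) and of 30 kb in replicate 2 (quartiles 10 and 60 kb), a mean of 20 kb ± 14.1 (SD, n = 2), and the farther anchor at 120 and 130 kb. The nearer anchor was at most 10 kb away in 807 loops of replicate 1 (52.9%, interval 50.4 to 55.4%) and in 853 loops of replicate 2 (38.4%, 36.4 to 40.4%). It was over 50 kb away in 355 loops (23.3%) and 700 loops (31.5%), so that both anchors of these loops were remote from the boundary they crossed. Both anchors within 20 kb of the boundary were rare, at 14 loops of the first replicate and 54 of the second. This count is limited in advance, since anchors so close to the boundary make short loops. The shortest crossing loops were 35 and 40 kb long.

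The anchor close to the boundary was most often the right one. Apart from loops with equal distances, the nearer anchor was the right anchor in 1107 of 1501 crossing loops in replicate 1 (73.8%, interval 71.5 to 75.9%) and in 1401 of 2159 in replicate 2 (64.9%, 62.9 to 66.9%). Among loops whose nearer anchor was at most 10 kb away the share was 89.0% and 91.2%. Over 10 kb away it was 56.1% (52.4 to 59.7%) in replicate 1 and 47.7% (45 to 50.4%) in replicate 2. The imbalance was therefore concentrated in the anchors next to the boundary.

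Counts by side showed the same. Within 10 kb of the boundary, replicate 1 had 719 right anchors and 91 left anchors of crossing loops, and replicate 2 had 778 and 75. Between 40 and 50 kb the order was opposite, with 22 right and 88 left anchors in replicate 1 and 81 right and 184 left anchors in replicate 2. The 2 orders are not independent. Each crossing loop has 1 left and 1 right anchor, so right anchors counted next to the boundary are missing from the farther bins.

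**Figure D1:**
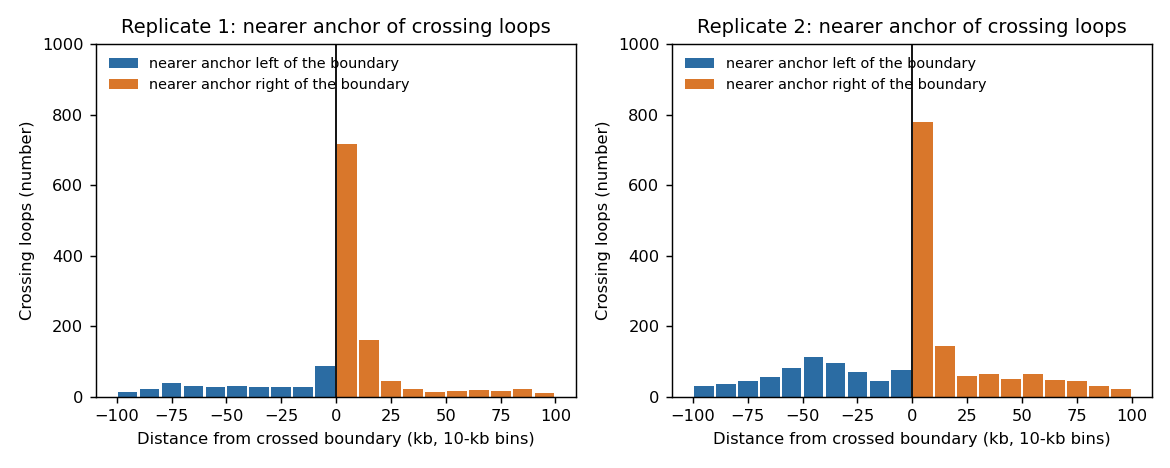
Number of crossing loops by the distance of their nearer anchor from the crossed boundary, in 10-kb bins up to 100 kb on the left (blue) and right (orange) of the boundary, for each replicate. The bar just right of the boundary holds most of the loops with a nearer anchor at most 10 kb away, 89.0% in replicate 1 and 91.2% in replicate 2.

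The anchors of all loops were not centred on the boundary coordinate either. Among the 10-kb anchors of replicate 2, crossing or not, the 10-kb bin to the right of boundaries without a gap held 3851 left and 3775 right anchors of loops, and the bin to the left held 1337 left and 2842 right anchors. The second bin to the right held 1467 right anchors, and the second bin to the left held 199 left anchors. The rule removed the first bin on either side and kept the second, so an equal distance from the boundary coordinate did not mean an equal density of anchors. When level 0 boundaries were moved 5 kb to the right and the margin set to 10 kb, a choice made after this imbalance was seen, 686 loops of replicate 1 and 1172 of replicate 2 remained under the rule, and the nearer anchor was on the right in 51.9% and 48.7%. The cause of the offset was not tested.

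An anchor near a boundary was also more frequent in crossing loops than in loops inside a domain when any level 0 boundary was counted. An anchor lay at most 10 kb from a level 0 boundary in 64.1% of crossing loops and 21.4% of inside loops in replicate 1, and in 53.8% and 17.9% in replicate 2. Among loops of 400 kb and over the shares were 45.9% against 22.0% and 50.9% against 22.8%. A crossing loop has a boundary between its anchors by rule, and no test was made of this difference. The outer boundaries of the joined domains lay at most 10 kb from an anchor in 19.7% and 20.7% of crossing loops.

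The joined domains were of unequal size. The smaller of the 2 domains had a median of 160 kb in the first replicate and 170 kb in the second (mean 165 kb ± 7.07, SD, n = 2), and the larger 350 and 370 kb (360 kb ± 14.1). Over all neighbouring level 0 domains, crossed or not, the medians were 140 and 140 kb for the smaller and 330 and 320 kb for the larger. With each pair counted once, crossed pairs had medians of 160 and 160 kb for the smaller domain and uncrossed pairs 140 and 130 kb. The smaller domain of crossed pairs was thus larger by 20 to 30 kb at the median, with broad overlap.

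**Figure D2:**
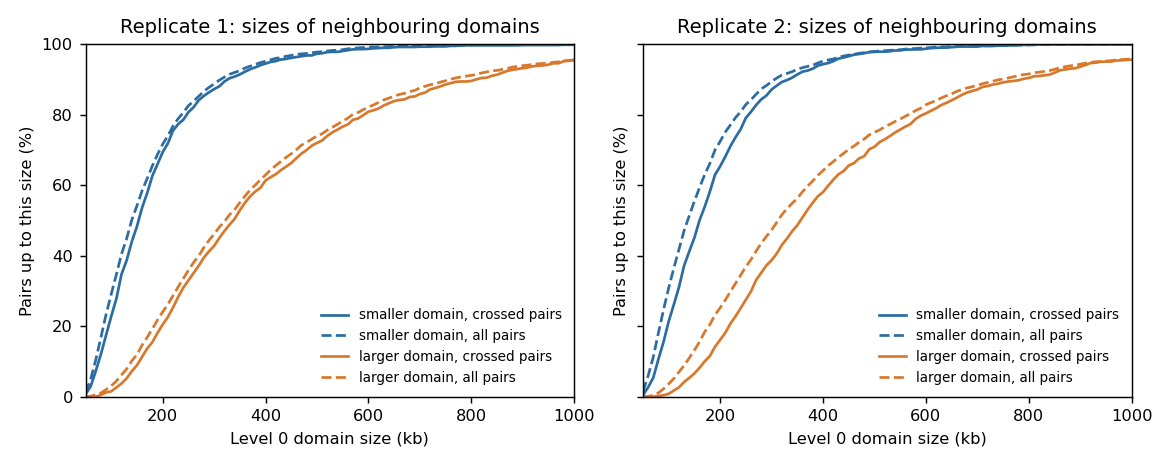
Share of pairs of neighbouring level 0 domains (percent) whose smaller (blue) or larger (orange) domain was up to the size on the x axis (kb), for pairs crossed by at least 1 loop (solid) and for all pairs (dashed). The curves of crossed pairs lie slightly to the right in both replicates.

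The share of boundaries crossed differed with domain size. At least 1 loop crossed 1298 of 7121 boundaries in replicate 1 (18.2%, interval 17.4 to 19.1%) and 1643 of 7247 in replicate 2 (22.7%, 21.7 to 23.6%). Where the smaller domain was under 120 kb the share was 14.6% and 16.3%, from 120 to under 200 kb it was 20.4% and 24.9%, and from 200 kb it was 19.8% and 28.0%. The share was lowest where the smaller domain was under 120 kb in both replicates. This is a description only, since the rule itself requires room for an anchor outside the margin on each side of the boundary and small domains leave less of it.

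Within its domain, the nearer anchor stood at a median depth of 10.7% of the domain's length in replicate 1 and 16.7% in replicate 2, counted from the crossed boundary. The farther anchor stood at 56.9% and 57.7%. The anchor pair as a whole spanned 33.6% and 35.5% of the 2 domains together. The nearer anchor was in the smaller domain in 62.0% and 64.9% of the loops whose domains and distances were unequal. The rule bears on this share, since each anchor had to lie in its own domain and its distance could not exceed the length of that domain.

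Boundaries crossed by loops were found in the other replicate slightly less often than those with no crossing loop. A level 0 boundary of the other replicate within 10 kb was found for 60.0% of all boundaries in replicate 1 and 59.0% in replicate 2. For crossed boundaries the share was 57.4% (745 of 1298, interval 54.7 to 60.1%) and 57.1% (939 of 1643, 54.7 to 59.5%), and for uncrossed boundaries 60.6% and 59.5%. The difference was -3.23 percentage points in replicate 1 (95% Newcombe interval -6.21 to -0.278) and -2.38 in replicate 2 (-5.10 to 0.325), and its sign was negative on 7 of 10 chromosomes in each. Only the interval of replicate 1 excluded 0. When a boundary of any level within 10 kb was accepted, the difference was -0.0810 points (-2.79 to 2.52) in replicate 1 and 0.516 points (-1.95 to 2.90) in replicate 2.

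Presence of a loop anchor at the boundary moved with this difference. A loop of the same replicate had an anchor in the boundary zone at 38.7% of crossed and 59.0% of uncrossed boundaries in replicate 1, and at 52.3% and 67.8% in replicate 2. The rule bears on these shares, since a loop with an anchor in the zone could not itself count as crossing. Among boundaries with such an anchor, 65.8% of crossed and 66.8% of uncrossed ones were found again in replicate 1, and 62.4% and 64.0% in replicate 2. Among boundaries without one the shares were 52.1% and 51.7%, and 51.3% and 50.1%. Within each of these groups, the interval of the difference between crossed and uncrossed boundaries included 0 in both replicates, the widest bounds being -5.53 and 5.38 points.

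Of the crossed boundaries not found at level 0, 208 of 553 in replicate 1 (37.6%, interval 33.7 to 41.7%) and 273 of 704 in replicate 2 (38.8%, 35.3 to 42.4%) lay within 10 kb of a boundary of a smaller, nested domain of the other replicate. For uncrossed boundaries these shares were 32.7% (30.8 to 34.7%) and 33.9% (32.0 to 35.9%). Crossed boundaries were higher by 4.91 points (0.511 to 9.43) and 4.87 points (0.828 to 8.997), so that those missing at level 0 were more often present as the edge of a nested domain. No boundary of any level was within 10 kb for 26.6% and 26.2% of crossed boundaries, and for 26.5% and 26.7% of uncrossed ones.

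A boundary crossed in 1 replicate tended to be crossed in the other. Among crossed boundaries found again, 281 of 745 in replicate 1 (37.7%, interval 34.3 to 41.2%) had at least 1 crossing loop at the matching boundary of replicate 2, against 18.7% of uncrossed ones, a difference of 19.0 points (15.4 to 22.8). In the other direction the shares were 29.9% (281 of 939, 27.1 to 32.9%) and 13.9%, a difference of 15.99 points (12.9 to 19.2). Within each class of domain size the crossed boundaries had the higher share, from 33.0% against 19.2% where the smaller domain was under 120 kb to 43.1% against 17.8% from 200 kb in replicate 1, and from 32.0% against 16.4% to 30.4% against 10.9% in replicate 2. Even so, most boundaries crossed in 1 replicate had no crossing loop at the matching boundary of the other.

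The anchors of crossing loops were then placed on the domains of the other replicate, whether or not a loop had been called there. Of the replicate 1 crossing loops, 34.3% joined neighbouring level 0 domains of replicate 2 as well, 25.9% fell inside 1 domain, 34.2% had an anchor at a boundary and 4.85% passed over a whole domain. Of the replicate 2 crossing loops these shares on replicate 1 domains were 39.6%, 21.3%, 33.4% and 5.44%. Loops inside 1 domain kept that class in 75.1% and 75.4%, and became crossing in 4.65% and 4.58%. For reading these shares, crossing loops were 8.67% and inside loops 46.7% of all replicate 2 loops on their own domains, and 9.05% and 52.5% of those of replicate 1. The shares describe how positions that chose the loops fell on a second set of domains, and the lengths of the classes differed, so that crossing and inside loops were not compared further in this way.

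The class on the domains of the other replicate depends in part on the crossed boundary by construction, since a loop whose boundary was found again can hardly lie inside 1 domain there, and 0 of 868 and 0 of 1267 such loops did. Of the loops with such a boundary, 52.8% in replicate 1 and 58.2% in replicate 2 joined neighbouring domains there too, and 38.6% and 33.5% had an anchor at a boundary. Of those whose boundary was not found, 60.2% and 49.6% lay inside 1 domain and 10.03% and 15.0% joined neighbours across a boundary more than 10 kb away. Loops with the nearer anchor over 50 kb from the boundary kept the crossing class in 36.6% and 46.1%, and those with an anchor at most 10 kb away in 32.5% and 28.5%.

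**Figure D3:**
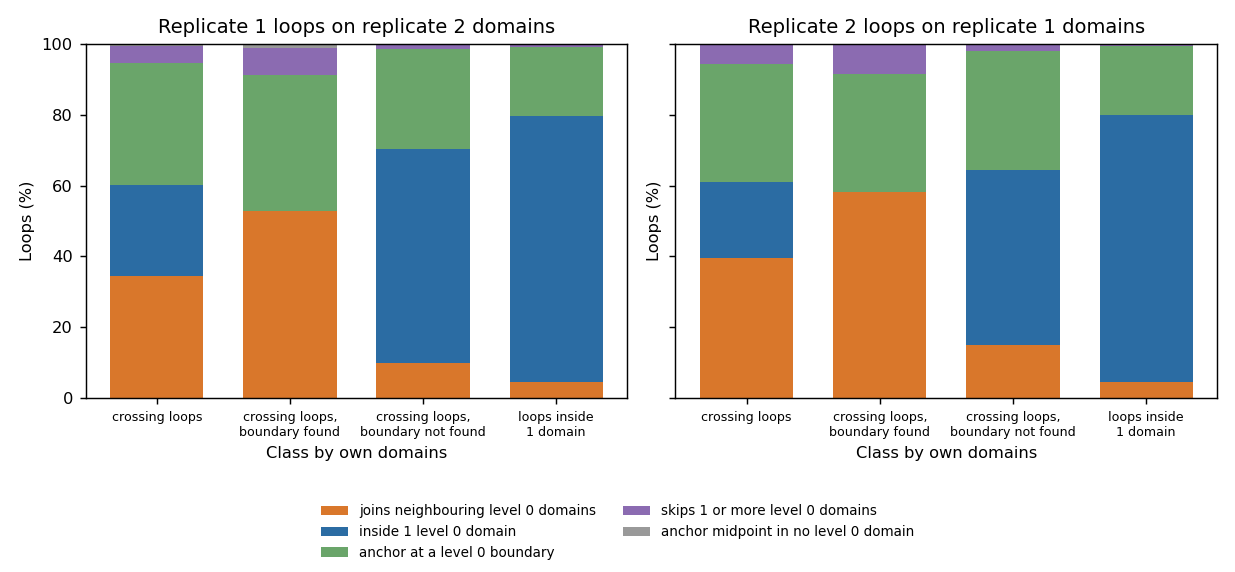
Classes (percent of loops) that the loops of each replicate took when their own anchors were placed on the domains of the other replicate, for crossing loops, crossing loops whose boundary was or was not found again, and loops inside 1 domain. Of crossing loops 34.3% (replicate 1) and 39.6% (replicate 2) stayed crossing, while 75.1% and 75.4% of inside loops stayed inside.

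Crossing loops themselves were found in the other replicate less often than inside loops in replicate 2, whereas the difference in replicate 1 was within its interval. A loop counted as found when 1 loop of the other list overlapped both of its anchors, which held for 46.1% of all loops of replicate 1 and 30.3% of replicate 2. Of the crossing loops 656 of 1526 were found in replicate 1 (43.0%, interval 40.5 to 45.5%) and 477 of 2223 in replicate 2 (21.5%, 19.8 to 23.2%). Inside loops weighted to the same lengths were found in 44.7% and 31.5%. The difference was -1.69 points in replicate 1 (-4.41 to 1.07), where 5 of 10 chromosomes were lower, and -10.1 points in replicate 2 (-12.1 to -7.94), where 10 of 10 were. With loops of 10-kb anchors in both lists the difference was -2.94 points (-7.22 to 1.504) and -3.72 points (-5.17 to -2.11). Its size in replicate 2 fell by over 1.5 times, but so did the share found. With only the 6884 loops of replicate 1 with 10-kb anchors left to match, 10.2% of the crossing loops of replicate 2 were found. The part of anchor width in the difference was not tested.

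The difference varied with length in replicate 1. For loops under 100 kb, 52.8% of crossing and 47.6% of inside loops of replicate 1 were found, a difference of 5.24 points (-0.167 to 10.6). From 200 to under 400 kb the shares were 37.0% and 43.0% (-6.01 points, -11.1 to -0.799), and from 400 kb 23.0% and 37.0% (-14.0 points, -22.7 to -4.62). In replicate 2 the crossing loops were lower at every length, by between -5.34 and -11.9 points, and each interval excluded 0. Long crossing loops were thus found less often than long inside loops in both replicates. Wider anchors, which long loops of replicate 1 more often had, were matched less often: 59.1% of crossing loops with 5-kb anchors, 42.03% with 10-kb and 25.8% with 25-kb anchors were found. From 200 to under 400 kb, crossing and inside loops were found in 58% and 60.7% (5 kb), 39.1% and 44.9% (10 kb), and 30.05% and 35.25% (25 kb). From 400 kb the shares were 66.7% and 76.9% (6 and 13 loops), 24.4% and 47.5%, and 19.6% and 28.1%. The part of anchor width was not tested.

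**Figure D4:**
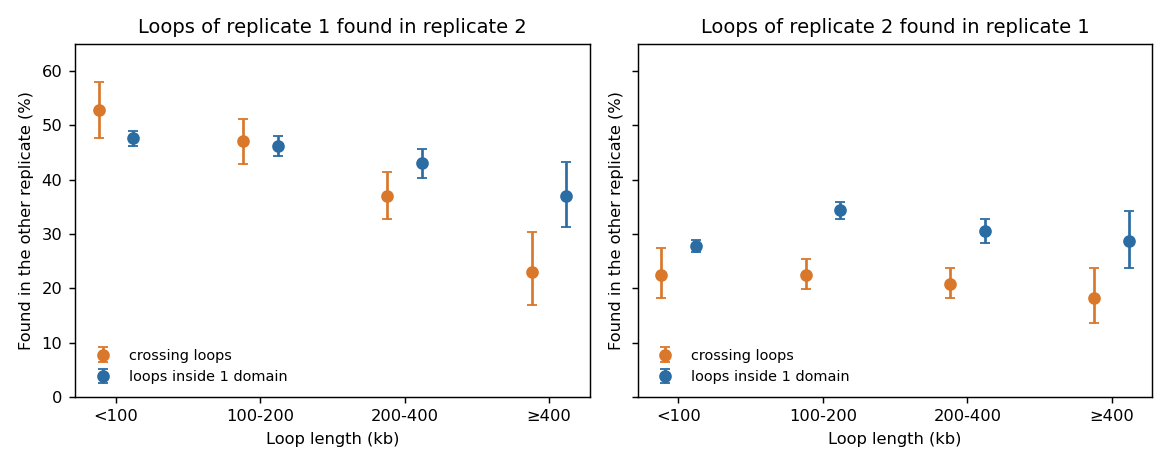
Share of loops found in the other replicate (percent, y axis) by loop length (kb, x axis) for crossing loops (orange) and loops inside 1 domain (blue). Points are shares and bars 95% Wilson intervals. In replicate 1 crossing loops were lower from 200 kb upward, and in replicate 2 at each length.

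Crossing loops with an anchor close to the boundary were found more often than the others. With the nearer anchor at most 10 kb away, 51.3% (414 of 807) were found in replicate 1 and 32.0% (273 of 853) in replicate 2, against 33.7% (242 of 719) and 14.9% (204 of 1370) of those farther away. The difference was 17.6 points (interval 12.7 to 22.5) and 17.1 points (13.5 to 20.8). It was positive in each of the 4 length classes of both replicates, where its interval excluded 0 in 2 classes of replicate 1 and in 3 of replicate 2. Anchor width moved with the distance in replicate 1, where 5-kb anchors had a median nearer distance of 5 kb and 25-kb anchors one of 37.5 kb. Within 5-, 10- and 25-kb anchors the difference there was 8.52 points (-2.52 to 19.6), 8.90 points (0.993 to 16.7) and 7.59 points (-1.43 to 17.2), smaller than over all widths, and only the interval of 10-kb anchors excluded 0. Contacts moved with the distance in replicate 2, with medians of 30 near the boundary and 20 away from it. There the difference was 14.3 points (9.71 to 18.8) among loops with at least 20 contacts and 4.43 points (-0.682 to 11.5) among those with fewer. Inside loops with and without an anchor at most 10 kb from a boundary differed by 4.77 points (2.24 to 7.31) and 7.29 points (5.09 to 9.54).

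Crossing loops whose anchors both lay away from level 0 boundaries were also compared with inside loops. With a margin of 20 kb, chosen after the data were examined, crossing loops were found less often than inside loops of the same lengths in both replicates, by -10.9 points (-15.2 to -6.05) and -18.7 points (-20.9 to -16.1). With boundaries moved 5 kb to the right and a margin of 10 kb the differences were -9.62 points (-13.3 to -5.62) and -18.0 points (-20.1 to -15.5). Loops over boundaries found and not found again could not be told apart: 43.9% of loops over a boundary found again and 41.8% of the others were found in replicate 1 (2.10 points, -2.92 to 7.08), and 20.2% and 23.1% in replicate 2 (-2.91 points, -6.41 to 0.530).

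Where a crossing loop was found, the matching loop of the other replicate was classed by its own domains. It also joined neighbouring level 0 domains in 145 of 656 cases from replicate 1 (22.1%, interval 19.1 to 25.4%) and in 145 of 477 from replicate 2 (30.4%, 26.4 to 34.7%). It had an anchor at a level 0 boundary in 50.6% and 40.04%, lay inside 1 domain in 24.4% and 25.6%, and passed over a whole domain in 2.44% and 3.77%. Among all loops of the list being matched, boundary loops were 41.8% in replicate 2 and 35.8% in replicate 1 and crossing loops 8.67% and 9.05%. No test was made of these shares against those among the matching loops.

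Contacts at crossing loops were fewer than at inside loops of the same length, and so were the contacts expected around them. In replicate 2, crossing loops had a median of 36 contacts under 100 kb, 25 from 100 kb, 20 from 200 kb and 16 from 400 kb, and inside loops had 42, 31, 23 and 19. In replicate 1 the medians were 17, 18, 21 and 24 against 19, 21, 22 and 26, and they rose with length, whereas with 10-kb anchors alone those of crossing loops fell from 23 under 100 kb to 14 from 400 kb. The expected contacts of crossing loops in the same order were 2.51, 3.40, 4.18 and 6.33 in replicate 1 and 9.93, 5.89, 4.04 and 2.73 in replicate 2. Those of inside loops were 3.14, 4.56, 4.403 and 7.09, and 11.6, 7.57, 5.22 and 3.80. Crossing loops were lower in observed and in expected contacts in all 4 length classes of both replicates.

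The ratio of observed to donut-expected contacts had a higher median in crossing loops than in inside loops in each length class, with broad overlap. Its median over all crossing loops was 5.15 in replicate 1 (quartiles 3.67 and 7.45) and 4.66 in replicate 2 (quartiles 3.89 and 5.87), a mean of 4.91 ± 0.346 (SD, n = 2). By length the medians of crossing and inside loops were 6.20 and 5.54 under 100 kb, 5.56 and 4.69 from 100 kb, 4.61 and 4.57 from 200 kb, and 4 and 3.91 from 400 kb in replicate 1. These pool 3 anchor widths, whose crossing loops had median ratios of 8.31 (5 kb), 5.14 (10 kb) and 3.18 (25 kb). With 10-kb anchors alone the ratio of crossing loops rose with length, from 3.98 under 100 kb to 6.55 from 400 kb. From 100 to under 200 kb it was 4.81 against 4.58 for inside loops. In replicate 2 they were 3.85 and 3.64, 4.42 and 4.29, 5.09 and 4.74, and 5.91 and 5.21. The quartile ranges of the groups overlapped in every length class. With other backgrounds the order turned in 3 cases, under 100 kb in replicate 2 for the lower-left (3.71 against 3.83) and horizontal background (3.17 against 3.18), and from 200 kb in replicate 1 for the lower-left background (4.42 against 4.49). The horizontal background gave a lower median ratio over all crossing loops, of 4.13 over both replicates, and the vertical background 4.18. All loops had passed the thresholds of the caller, so that weaker contacts across boundaries are not in the lists.

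**Figure D5:**
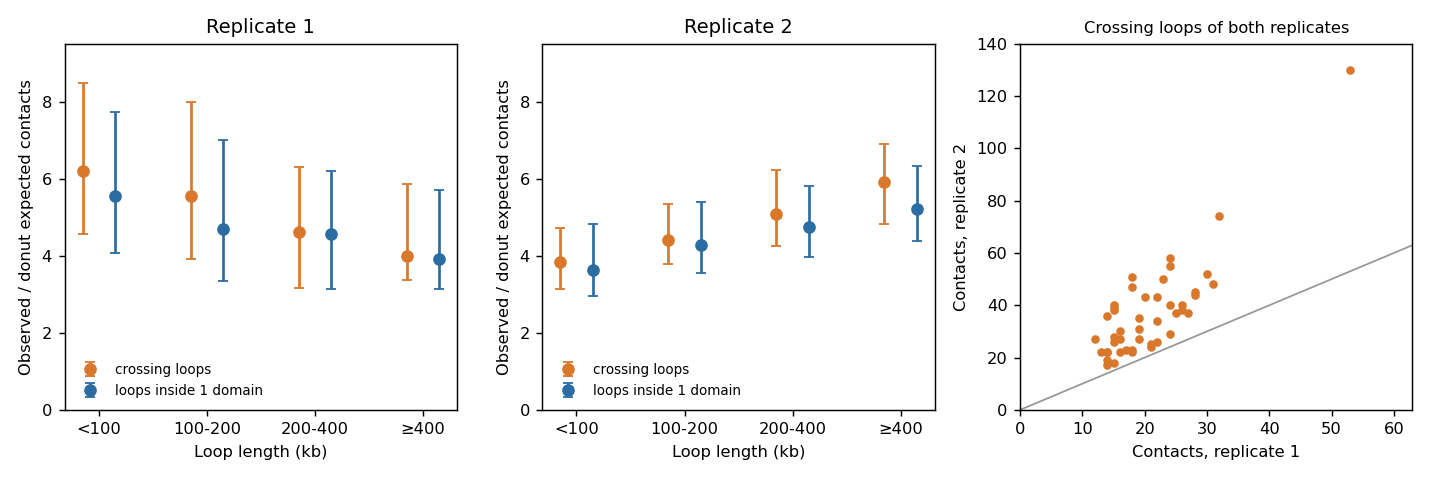
Left and middle, ratio of observed contacts to donut-expected contacts (y axis) by loop length (kb, x axis) for crossing (orange) and inside loops (blue), as medians with quartiles. Replicate 1 pools anchors of 5, 10 and 25 kb. Right, contacts in replicate 1 (x axis) and replicate 2 (y axis) of the 45 crossing loops with identical anchors and boundary, all above the line of equal counts.

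A few crossing loops had extreme ratios. Ratios over 20 were seen in 19 crossing loops of replicate 1 and 8 of replicate 2, with median expected contacts of 0.624 and 0.844, so that these ratios rest on very small expected values. The crossing loop with the most contacts in replicate 2 was 1 of them, with 270 contacts against 2 expected between 137020001-137030000 and 137110001-137120000 on chromosome 1 (ratio 135). In replicate 1 the most contacts, 128, were at a loop with 25-kb anchors on chromosome 1 between 166175001-166200000 and 166275001-166300000 (ratio 3.54).

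Contacts also differed with the distance of the nearer anchor, in opposite ways in the replicates. In replicate 2, loops with an anchor at most 10 kb from the boundary had a median of 30 contacts and the others 20, with median lengths of 140 and 210 kb. In replicate 1 the medians were 17 and 21 contacts and 120 and 225 kb. Anchor width moved with both there: crossing loops with 5-, 10- and 25-kb anchors had medians of 13, 17.5 and 36 contacts. Their nearer anchors lay at medians of 5, 20 and 37.5 kb. Replicate 2 had a single width, so the 2 orders are not directly comparable. Among crossing loops of replicate 2, 28.3% of those with at least 20 contacts and 8.21% of those with fewer were found in replicate 1. The order was opposite in replicate 1, where 38.9% and 46.6% were found and where anchor width varied.

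Anchors of crossing loops met the boundaries of smaller, nested domains less often than anchors of inside loops did. A boundary of level 1 or deeper lay at an anchor, within the same 2 kb, in 322 crossing loops of replicate 1 (21.1%, interval 19.1 to 23.2%) and 694 of replicate 2 (31.2%, 29.3 to 33.2%), against 32.8% and 40.6% of inside loops. Over all loops, those with an anchor at a level 0 boundary included, the shares were higher, at 45.5% and 53.9%. At the same lengths the difference between crossing and inside loops was -18.1 points in replicate 1 (-20.4 to -15.6) and -15.7 points in replicate 2 (-17.9 to -13.4). It was negative on 10 of 10 chromosomes in each. Domain sizes were not matched, and the part of the rule, which kept anchors off level 0 boundaries, was not tested. The shares were lowest under 100 kb in both classes, and the difference had the same sign in each of the 4 length classes of both replicates, with an interval that excluded 0. The size of the difference depended on the margins. With a margin of 20 kb around level 0 boundaries it was -13.0 points in replicate 1 and -8.999 in replicate 2, with boundaries moved 5 kb to the right -14.95 and -10.3, and with 10 kb around sub-domain boundaries -10.4 and -15.7.

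Sub-domain boundaries lay more often at the farther than at the nearer anchor of crossing loops. The farther anchor had one in 16.7% of the loops in replicate 1 and 23.8% in replicate 2, whereas the nearer anchor had one in 5.64% and 9.72%. The nearer anchor was within 10 kb of a level 0 boundary in 52.9% and 38.4% of the loops, and the rule had removed anchors at level 0 boundaries. The part of these positions in the contrast was not tested. Both anchors had one in 1.25% and 2.25% of crossing loops and in 3.91% and 5.43% of inside loops. Crossing loops that linked the edge of a sub-domain on 1 side to the edge of a sub-domain on the other were therefore rare.

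Most crossing loops shared an anchor with another loop. This held for 1295 of 1526 in replicate 1 (84.9%, interval 83.0 to 86.6%) and 2103 of 2223 in replicate 2 (94.6%, 93.6 to 95.5%), against 73.7% and 84.3% of inside loops, differences of 11.2 points (9.07 to 13.1) and 10.3 points (9.06 to 11.4). These differences were matched for neither loop length nor anchor width. With loops of 10-kb anchors alone the share for crossing loops of replicate 1 was 57.0%, and that of inside loops was not computed. Both anchors were shared in 45.8% and 65.7% of crossing loops, a share that was not computed for inside loops or for all loops. The partner was most often a loop inside 1 domain, for 54.9% and 74.4% of the crossing loops, or a loop with an anchor at a boundary, for 50.4% and 63.7%, and it was another crossing loop for 34.3% and 53.0%. Of all loops, 52.5% and 46.7% were inside loops, 35.8% and 41.8% had an anchor at a boundary, and 9.05% and 8.67% were crossing. A crossing loop could have partners of several classes, so the 2 sets of shares are not directly comparable.

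Some crossing loops were accompanied by shorter loops that ended at the boundary they crossed. A loop from the left anchor to the crossed boundary was present for 8.59% of crossing loops in replicate 1 and 24.7% in replicate 2, and a loop from the boundary to the right anchor for 6.42% and 17.9%. Both were present for 2.75% (42 loops) and 11.4% (253 loops), which makes a triangle of 3 called contacts around the boundary. Neither was present for most crossing loops, since at least 1 was called for 12.3% and 31.2%. These shares are limited in advance. No crossing or inside loop was shorter than 35 kb in replicate 1 or 40 kb in replicate 2. That leaves little room for a called loop between the boundary and an anchor at most 10 kb away. Such an anchor, most often the right one, was present in 52.9% and 38.4% of crossing loops.

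Several loops could cross the same boundary. More than 1 crossing loop passed over 208 boundaries in replicate 1 (16.02% of those crossed, interval 14.1 to 18.1%) and 437 in replicate 2 (26.6%, 24.5 to 28.8%), and these boundaries held 436 and 1017 of the crossing loops. Boundaries with more than 1 crossing loop were found in the other replicate in 53.4% and 57.0%, and those with 1 in 58.2% and 57.2%. The intervals of the differences, -12.2 to 2.48 and -5.67 to 5.12 points, included 0.

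The boundary crossed most often in replicate 2 was at 206720000 on chromosome 5, between domains of 370 and 220 kb, with 6 loops and 150 contacts in all. Of these loops 4 shared the right anchor 206750001-206760000, which lay 30 kb beyond the boundary, and reached back to anchors 300, 170, 120 and 10 kb to its left. In replicate 1 the most loops over 1 boundary were 4, at 114560000 on chromosome 7 and at 39810000 on chromosome 6. All 4 loops over the chromosome 6 boundary ended 10 or 15 kb to its right, and their left anchors lay 155, 190, 460 and 1010 kb before it. Shared anchors lay on the left at other boundaries. At 68030000 on chromosome 3 in replicate 2, 3 of 5 loops shared the left anchor 67920001-67930000, and at 142190000 on chromosome 8, 3 of 5 shared 142160001-142170000. At 168320000 on chromosome 2 in replicate 1, 2 of 3 loops shared 168250001-168275000. Of these 6 boundaries those on chromosomes 7 and 3 were found in the other replicate.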

How the data were processed

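Hi-C of B73 v04 leaves was analysed in replicates 1 and 2. The authors used Juicer for mapping to AGPv4, HiTAD with its defaults for domains, and for loops HICCUPS of juicer_tools 1.9.9 (replicate 1) and 1.14.08 (replicate 2), without pooling. The deposited loop lists give raw counts of contacts. The expected contacts are signal values that the authors' caller derived from 4 local backgrounds. The false discovery rates (q-values), also deposited, reached 0.0982. Coordinates are printed counted from 1. The members, lists and lengths were chosen with earlier results of these data known.

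Loops on chromosomes 1 to 10 were classed, with Python 3.11.15, numpy 2.4.6 and pandas 2.3.3, by the level 0 domains holding their anchor midpoints, distances being measured from the anchor edge. Wilson and Newcombe intervals (95%) used scipy 1.17.1, plots matplotlib 3.10.9. Comparisons at the same lengths weighted 4 length classes (limits 100, 200 and 400 kb) to the crossing loops. Class, matching and interval scripts were tested on simulated data. With 1 condition and 2 replicates no p-value was computed. Named loops were the identical crossing loops with the largest lesser ratio (at least 20 contacts), the extremes of length and contacts, and the most crossed boundaries. Alternatives are given in the closing section. Only calls are in the lists, so a region without a call was not measured, and a differing anchor width affects matches between replicates.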

Additional observations from a re-analysis of the deposited data

Results flagged for a closer look

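The loop lists held 338 loops of replicate 1 and 289 of replicate 2 on unplaced sequence (Chr0), for which no domains were used, so that they could not be classed as crossing.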

How the results depend on the processing

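Of 177 recomputed values, 134 kept their direction and side of 0, or moved by less than the spread between replicates. The 134 include each value with 1 replicate left out, which by construction could not move beyond that spread. The number of crossing loops was judged by a fixed ratio instead. The spread was 15.2 points for found crossing loops and 0.173 points for found boundaries. An equal move could thus count as kept for the loops and as changed for the boundaries, so the count of 134 does not measure stability. Settings of 10-kb anchors only or a 10-kb margin left many values of replicate 2 unchanged, its anchors all being 10 kb wide. All values here are means of both replicates unless a replicate is named, and the causes of changes were not tested. The share of crossing loops was 23.4% with a margin of 0 kb, 7.55% with 10 kb (6.43% in replicate 1 and an unchanged 8.67% in replicate 2) and 7.82% when level 0 domains under 100 kb were left out. Crossed boundaries were found in 31.9% at an identical coordinate, 65% within 20 kb, 71.8% within 50 kb and 73.6% with boundaries of any level, and in 55.5% with 10-kb anchors only, 57.1% with false discovery rates of at most 0.01, 55.7% with a margin of 10 kb and 57.0% with adjoining domains only. The difference between crossed and uncrossed boundaries in replicate 1 no longer excluded 0 at an identical coordinate (-2.76 points), within 20 kb (-2.75) or with boundaries of any level (-0.0810). In replicate 2 it excluded 0 at an identical coordinate (-3.39) and with moved boundaries (-3.35), and its sign turned with boundaries of any level (0.516). Identical anchors were found for 13.4% of crossing loops, 16.6% in replicate 1 and 10.2% in replicate 2. The 5- and 25-kb anchors of replicate 1 could have no identical partner. Among its 602 crossing loops with 10-kb anchors, 42.03% were found. For replicate 2, only the 6884 loops of replicate 1 with 10-kb anchors could match. The difference in found loops of replicate 1 excluded 0 with a margin of 10 kb (-5.09 points), 20 kb (-10.9) and moved boundaries (-9.62).

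With the margin of 20 kb, added after the data were examined, the number of crossing loops was 738, their share 3.33%, found boundaries 52.1%, the nearer distance 52.5 kb, the smaller domain 190 kb, boundaries crossed by more than 1 loop 12.1% and sub-domain boundaries at an anchor 39.1%. With boundaries moved 5 kb to the right and a margin of 10 kb, also added then, these were 929 loops, 4.32%, 53.3%, 45 kb and 180 kb, and 34.9% for sub-domain boundaries. Sub-domain boundaries with a margin of 10 kb were at an anchor of 35.7% (40.1% in replicate 1 and an unchanged 31.2% in replicate 2). The ratio of contacts was 4.13 with the horizontal and 4.18 with the vertical background. Shared anchors fell to 75.8% with 10-kb anchors only and 71.7% with identical coordinates. Only replicate 1 changed there, to 57.0% and 48.7%, while replicate 2 stayed at 94.6%.

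Leaving out 1 replicate gives the other replicate's own value, which the report prints beside each mean. No paired analysis was possible because both replicates belong to 1 group. Depth limits which loops were called, and the total contacts are not in the lists used here, so that a loop or boundary not found in the other replicate is not shown to be absent there.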
